A study of Mus musculus with 20 samples.

Results

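The cell composition of the mouse kidney 14 d after long ischemia was compared with that of control kidneys, as the share of each of 18 cell clusters in every single-cell RNA-seq library. The cells were taken by the treatment label that the authors gave each cell. This left 14279 cells labelled IRI long 14 d in 2 libraries (IRF9 with 7229 and IRF12 with 7050 cells) and 37872 control cells in 6 libraries (norm1 to norm5 and Scl, with 2272 to 14320 cells). Together these are 52151 of 113579 cells, or 45.9%, and 8 of the 20 samples of the series. IRI long denotes bilateral clamping of the renal pedicles for 30 min in male C57BL/6J mice aged 10 to 12 weeks. Control mice were of the same strain, sex and age, and the labels name no procedure for them. The study set out to separate adaptive from maladaptive repair, so the series also holds kidneys taken 1 and 3 d after IRI long, and kidneys taken 1, 3 and 14 d after a shorter ischemia of 23 min (IRI short), with 2 libraries each. The labels do not tie a library to a replicate number, and a library was taken as 1 mouse.

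After ischemia the proximal tubule (PT), which does most of the reabsorption of the kidney and has little capacity to make energy without oxygen, bears the heaviest damage, above all in its straight S3 segment. Neutrophils enter the injured kidney first, monocytes and macrophages follow, and surviving tubule cells proliferate to replace the lost ones. Where this repair fails, inflammation persists, the tubule stays atrophic and fibroblasts deposit matrix, a course known as maladaptive repair.

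A share says how a library is made up, not how many cells a kidney holds: fewer cells of one type and more cells of another cannot be told apart. The study itself considered that dissociation might skew cell proportions, and it measured immune cell fractions by flow cytometry as well. No such check was made here. No expression values were analysed here, so the cluster names are those of the authors and were not checked against marker genes. Cell barcodes divided the libraries in a way that the labels do not name, since these give 1 kit for all samples. The 5 control libraries other than norm5 shared 0.977 to 1.66 barcodes per 1000000 pairs of cells with one another, whereas norm5 and the IRI libraries shared 0.0746 to 0.529 among themselves and 0 to 0.123 with those 5. Since only norm5 stands on the side of the IRI libraries, differences against norm5 alone are given beside those against all controls where they change a call or a sign or where norm5 is at an end of the control range. Where the fit holds a term for this division (the barcode set), its differences from control are those against norm5 alone. The term marks only the other 5 control libraries. IRF9 and IRF12 had 11 barcodes in common, of which 1 was in the same cluster in both, and 31 of the IRI long 14 d barcodes also occurred in a control library.

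Most clusters had a different share of the cells 14 d after long ischemia. With limma on logit shares (the natural logarithm of the odds that a cell of the library belongs to the cluster, with 0.5 cells added), 13 of 18 clusters (72.2%) passed an adjusted p of 0.05. Of these, 6 were higher in IRI long 14 d (33.3%), namely both granulocyte clusters, both monocyte clusters, macrophages and B cells. The other 7 were lower (38.9%), namely PT S1, PT S3, the loop of Henle (LOH), the distal convoluted tubule (DCT), principal cells (PC), intercalated cells (IC) and myofibroblasts (Myofib). In each of these 13 clusters the 2 IRI long 14 d libraries lay outside the range of the 6 control libraries, and in none of the remaining 5. On a centred log-ratio scale, which refers each cluster to the mean of all, the median difference over clusters moved by −0.59 from 0.69, and 5 clusters were higher and 7 lower, without B cells.

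**Figure D1:**
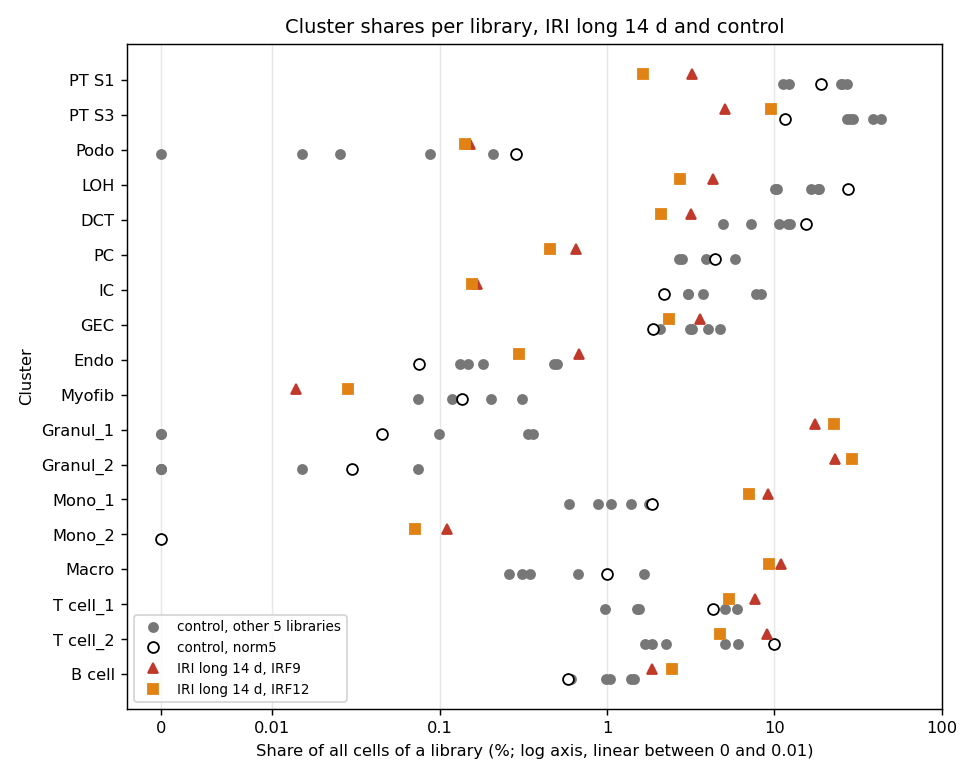
Share of each of the 18 clusters in the 8 libraries, in percent of all cells of a library on a log axis that is linear between 0 and 0.01%. Grey circles are 5 control libraries, the open circle is norm5 (points at 0 cover one another), triangles are IRF9 and squares IRF12; the granulocyte points of IRF9 and IRF12 lie between 17.5 and 28.9% while no control library exceeds 0.363%.

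Granulocytes, the short-lived phagocytes that are the first to enter injured tissue, showed the largest differences. Granul_2 made up 22.9% of the cells of IRF9 and 28.9% of IRF12. Among control libraries its share was 0% at the lowest, 0.00757% at the median and 0.0740% at the highest, and all 37872 control cells held 6 such cells. The 2 groups were separated by more than 2 orders of magnitude, with a difference of 7.44 on the logit scale (standard error 0.59, 95% interval 6.20 to 8.68, limma adjusted p = 3.53e-09). Granul_1 made up 17.5 and 22.8% of IRF9 and IRF12, against a control range of 0 to 0.363% with a median of 0.0718%, a difference of 5.79 (standard error 0.66, limma adjusted p = 5.37e-07). Both clusters together accounted for 40.4% of all IRF9 cells and 51.7% of all IRF12 cells. They also dominated the myeloid cells, with 66.7% (exact 95% binomial interval 65.3 to 68.1) in IRF9 and 75.9% (74.7 to 77.1) in IRF12, whereas 0 to 19.7% of the myeloid cells of a control library were granulocytes. In norm5 the shares were 0.0450% for Granul_1 and 0.0300% for Granul_2.

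Mononuclear phagocytes, which clear debris and can either promote or resolve inflammation, were higher as well. Macrophages (Macro) made up 10.9 and 9.22% of IRF9 and IRF12. The control libraries ranged from 0.258 to 1.67% with a median of 0.505%, so that the groups did not overlap (difference 2.96, standard error 0.41, limma adjusted p = 3.99e-06, and 2.39 against norm5 alone). Mono_1 made up 9.19 and 7.08%, against 0.592 to 1.86% in control with a median of 1.22%, which is a difference of 1.99 (limma adjusted p = 5.61e-05) and a 6.45-fold higher mean. The highest control share of Mono_1 was that of norm5, against which the difference was 1.53. Mono_2 was rare, with 8 cells in IRF9 and 5 in IRF12. None of the 37872 control cells belonged to it, which allows a share of up to 0.00792% when the cells are pooled. A single control library allows a higher share, since norm3 held only 2272 cells, so no fold difference is given. The test passed it (2.32, limma adjusted p = 3.53e-04), but it lost this call on the arcsine square root scale and with all libraries thinned to 2064 cells.

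Lymphocytes, the cells of adaptive immunity, differed far less. B cells made up 1.87 and 2.44% of IRF9 and IRF12 and 0.585 to 1.45% of control libraries (median 1.01%, lowest in norm5), without overlap. This difference of 0.81 (95% interval 0.11 to 1.52, limma adjusted p = 0.0359) was the only lymphoid one past the threshold, and it lost the call when any of IRF9, IRF12, Scl or norm5 was left out, with differences from 0.68 to 0.95. The call was also lost after thinning (0.78, limma adjusted p = 0.0793), on the centred log-ratio scale and in a fit of the 8 libraries alone (limma adjusted p = 0.0975), and it was kept against norm5 alone (limma adjusted p = 0.00931). T cell_1 made up 7.68 and 5.35% against 0.968 to 5.97% in control, and T cell_2 8.96 and 4.74% against 1.69 to 9.98%. Both T cell clusters overlapped between the groups, with differences of 0.94 (95% interval 0.01 to 1.87, limma adjusted p = 0.0614) and 0.62 (−0.36 to 1.60, limma adjusted p = 0.228). T cell_1 passed the threshold when norm3, norm4 or norm5 was left out. Norm5 held 9.98% T cell_2, the highest value among the 8 libraries, and against it alone the difference of this cluster was −0.46.

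Of the tubule, the PT was lower in both of its clusters. PT S1, the first and most reabsorptive part of the proximal tubule, made up 3.20% of IRF9 and 1.63% of IRF12. In control libraries it ranged from 11.3 to 27.0% with a median of 21.9%, an 8.25-fold higher mean (difference −2.31, standard error 0.38, limma adjusted p = 3.54e-05). Against norm5 alone, with 18.9% PT S1, the difference was nearly the same at −2.29. PT S3, the straight part, made up 5.06% of IRF9 and 9.55% of IRF12 against 11.5 to 43.2% in control (median 28.7%), a difference of −1.66 (95% interval −2.55 to −0.76, limma adjusted p = 0.00157). The lowest control value, 11.5%, was that of norm5, only slightly above IRF12. As said above, a term for the barcode set compares with this library alone. When limma was given the barcode set as a further term, the PT S3 difference was −0.55 (standard error 0.53, limma adjusted p = 0.396), and without IRF9 it was −1.32 (limma adjusted p = 0.0514).

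The clusters downstream of the PT were lower too. LOH, the segment that builds the concentration gradient of the medulla, made up 4.27 and 2.72% of IRF9 and IRF12 against 10.1 to 27.5% in control (median 17.3%), a difference of −1.69 (limma adjusted p = 3.35e-04). DCT, which reabsorbs salt under hormonal control, made up 3.17 and 2.11% against 4.90 to 15.4% in control (median 11.3%), a difference of −1.41 (limma adjusted p = 0.00137). Norm5 had the highest control share of both LOH and DCT, and against it alone the differences were larger, at −2.37 and −1.92. In the collecting duct, PC, the cells that take up water and sodium, made up 0.650 and 0.454% against 2.68 to 5.85% (median 4.12%). Their difference was −1.98 (limma adjusted p = 5.22e-05), or −2.12 against norm5 alone. IC, the acid-base regulating cells of the collecting duct, had the largest difference among the lower clusters. There were 12 IC cells in IRF9 (0.166%, exact 95% binomial interval 0.0858 to 0.290) and 11 in IRF12 (0.156%, 0.0779 to 0.279), while control libraries held 2.19 to 8.31% with a median of 3.40%. The control mean was 29.1-fold higher, and the difference was −3.25 (standard error 0.41, limma adjusted p = 1.49e-06). Norm5 had the lowest control share of IC and still exceeded the IRI long 14 d mean 13.6-fold.

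Podocytes, endothelial cells and myofibroblasts showed no common direction. Podo, the filter cells of the glomerulus, had 11 and 10 cells in IRF9 and IRF12 (0.152 and 0.142%) within a control range of 0 to 0.285% (difference 0.87, 95% interval −0.62 to 2.36, limma adjusted p = 0.251). GEC, glomerular endothelial cells, made up 3.61 and 2.34% against 1.89 to 4.71% in control, with a difference of −0.04 and a 95% interval from −0.70 to 0.63. Endo made up 0.678 and 0.298% against 0.0750 to 0.499%, a difference of 0.76 (−0.13 to 1.66, limma adjusted p = 0.106). With the barcode set as a term the difference of Endo was 1.72 (limma adjusted p = 0.0114), and those of Podo (−0.64) and GEC (0.44) had the other sign without passing the threshold. Endo also passed when norm1 or norm2 was left out. Norm5 had the highest control share of Podo and the lowest of GEC and Endo. Myofib, the contractile matrix-forming cells of fibrosis, passed the test with a lower share (difference −1.76, limma adjusted p = 2.02e-04). This rests on 1 cell in IRF9 and 2 cells in IRF12 against 53 control cells, with 0.0740 to 0.308% per control library and a median of 0.136%. Against norm5 alone the Myofib difference was −1.66, and on the arcsine square root scale the call was lost (limma adjusted p = 0.109).

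Shares of all cells sum to 100%, so that a higher share of some clusters has to lower the others. Each of the 8 immune clusters was therefore also taken as a share of the immune cells, and each of the 10 remaining clusters as a share of all non-immune cells. Within each of these sets the shares still sum to 100%. Under these denominators 9 of 18 clusters (50%) passed the threshold, 5 higher (27.8%) and 4 lower (22.2%), and the groups did not overlap in 10 clusters (55.6%), the tenth being Mono_2.

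**Figure D2:**
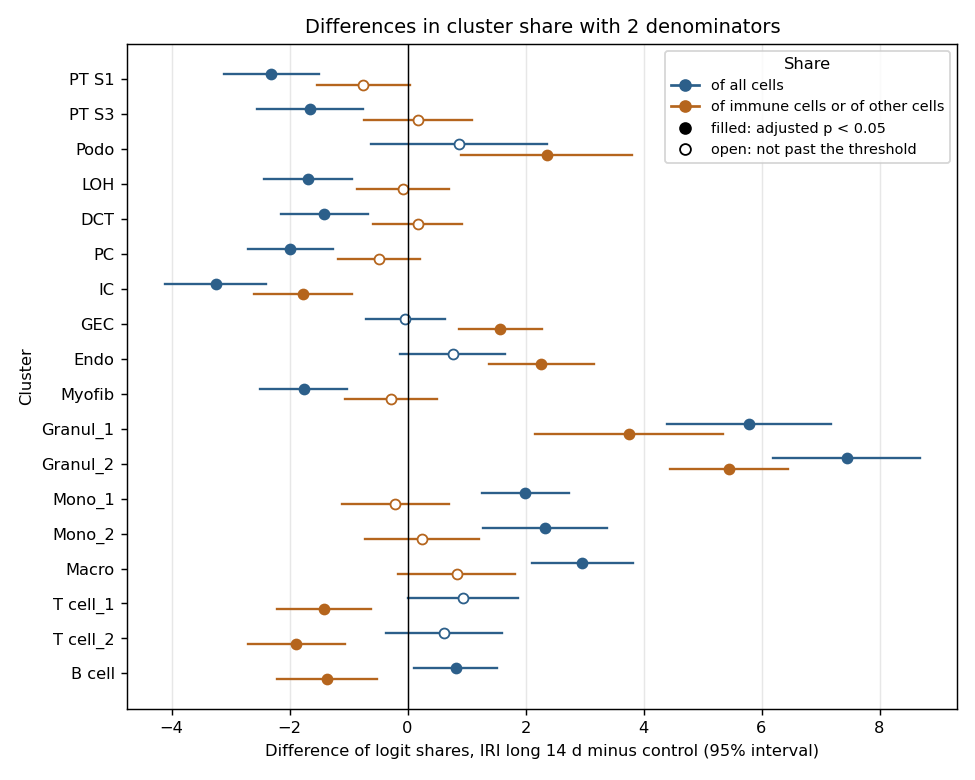
Difference in logit share between IRI long 14 d and control for each cluster, with limma 95% intervals, as share of all cells (blue) and as share of immune or of other cells (brown), filled where the adjusted p was under 0.05. The 2 PT clusters, LOH, DCT, PC and Myofib lie below 0 with the first denominator and have intervals that include 0 with the second, while IC stays below 0 with both.

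Among non-immune cells, the tubule clusters other than IC did not pass the test. The difference was −0.75 for PT S1 (95% interval −1.54 to 0.04), 0.18 for PT S3 (−0.73 to 1.09), −0.08 for LOH (−0.85 to 0.70), 0.17 for DCT (−0.58 to 0.92) and −0.48 for PC (−1.18 to 0.21). On the arcsine square root scale PT S1 was called lower (limma adjusted p = 0.0493). IC made up 0.792 and 0.803% of the non-immune cells of IRF9 and IRF12 against 2.66 to 9.68% in control, a difference of −1.77 (limma adjusted p = 7.69e-04) that became −1.19 with the barcode set as a term (limma adjusted p = 0.111). With norm5 as the only control, IC was not among the clusters that lost the call. A further 3 clusters were instead higher per non-immune cell. GEC reached 17.2 and 12.0% against 2.20 to 5.49% in control (difference 1.57, limma adjusted p = 5.92e-04). Endo reached 3.23 and 1.53% against 0.0912 to 0.532% (2.27, limma adjusted p = 3.25e-04). Podo had 0.726 and 0.730% against 0 to 0.347% (2.36, limma adjusted p = 0.00649). GEC and Endo kept the call against norm5 alone (1.97 and 3.14), whereas Podo did not (0.77). Podo also lost the call without IRF12 (limma adjusted p = 0.0518) or IRF9 (limma adjusted p = 0.0506).

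Among immune cells, both granulocyte clusters were higher and all lymphoid clusters lower. As shares of all cells, no lymphoid cluster was lower against all controls (T cell_1 0.94, T cell_2 0.62, B cells 0.81). Granul_2 was 28.9 and 35.9% of the immune cells of IRF9 and IRF12 against at most 0.521% in control (difference 5.45, limma adjusted p = 9.37e-09), and Granul_1 22.1 and 28.3% against at most 5.94% (3.75, limma adjusted p = 5.10e-04). Among lymphoid clusters, T cell_2 was lower with 11.3 and 5.88% against 23.6 to 56.1% (−1.88, limma adjusted p = 5.10e-04). T cell_1 was lower with 9.71 and 6.64% against 15.8 to 42.0% (−1.42, limma adjusted p = 0.00366), and B cells were lower with 2.36 and 3.03% against 3.29 to 17.8% (−1.37, limma adjusted p = 0.00649). Macro (0.83, 95% interval −0.16 to 1.82), Mono_1 (−0.21, −1.11 to 0.70) and Mono_2 (0.24, −0.73 to 1.21) did not pass. With the barcode set as a term, 5 of 18 clusters remained called (Granul_1, Granul_2, GEC and Endo higher, T cell_2 lower). Leaving out IRF12 ended the call of T cell_1, and leaving out IRF9 or taking norm5 alone that of B cells, while Macro was called without norm1. For each lymphoid cell the libraries of IRI long 14 d held 3.27 (IRF9) and 5.43 (IRF12) myeloid cells, and those of control 0.0847 to 0.644.

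**Figure D3:**
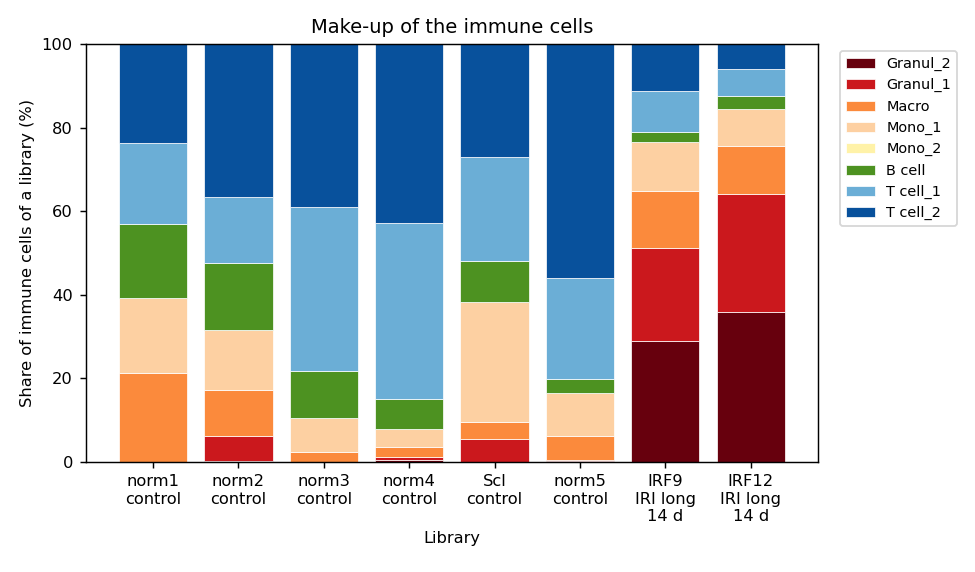
Make-up of the immune cells of the 8 libraries, in percent of the immune cells of each library, with 1 color per cluster. Granul_2 fills 28.9% of the bar in IRF9 and 35.9% in IRF12 and at most 0.521% of any control bar.

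Summed into classes, PT cells, other epithelial cells, myeloid cells and all immune cells each separated the groups completely (two-sided exact permutation tests, p = 0.0357 each). This is the smallest p that the design can give, and after adjustment for 6 classes it was 0.0536, so that no class could pass 0.05 with 4 of them separated. PT cells made up 8.26 to 11.2% of the IRI long 14 d libraries and 30.3 to 68.1% of control libraries. Their difference of −39.8 percentage points was −20.6 against norm5 alone, the control library with the lowest PT share. Other epithelial cells made up 8.41 and 5.59% of IRF9 and IRF12 and 23.3 to 49.8% of control libraries, a difference of −29.0 percentage points (−42.8 against norm5 alone). Endothelial or stromal cells were 4.30 and 2.67% against 2.10 to 4.93% (exact permutation test, p = 0.929). Immune cells were 79.0 and 80.6% against 6.11 to 17.8%, a difference of 69.0 percentage points that was 62.0 against norm5 alone.

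Shares within a single lineage do not depend on the number of other cells. IC formed 20.3 and 25.6% of the collecting duct cells of IRF9 and IRF12 against 33.2 to 74.9% in control, without overlap (difference −28.2 percentage points, exact permutation test, p = 0.0714, adjusted p = 0.321 over 6 lineages). PT S1 formed 38.7% of the PT cells of IRF9 but 14.6% of those of IRF12, against 28.7 to 62.1% in control (−14.4, exact permutation test, p = 0.286). The 2 mice thus differed from each other more than the group means did, and the difference was −2.35 without IRF12 and −26.5 without IRF9. Most PT S3 cells of IRF12 had a name outside the PT in a second annotation by the authors, described below. Among cells of the PT class in both annotations, PT S1 and PT S3 held 100 and 88 cells in IRF12 and 221 and 237 in IRF9. In control these counts ran from 448 and 1105 (norm4) to 1201 and 691 (norm5). The share among these cells was not tested. Macro formed 53.9 and 56.3% of the mononuclear myeloid cells against 12.6 to 54.5% in control (21.0, exact permutation test, p = 0.107). The shares of GEC among endothelial cells (86.5% on average against 92.5%), of T cell_1 among T cells (49.6 against 42.1%) and of B cells among lymphoid cells (14.8 against 15.5%) overlapped between the groups. None of these 6 lineage shares passed the adjusted threshold in the exact permutation test, and none had an unadjusted p under 0.05.

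Bray-Curtis distances (0 for the same 18 shares, 1 for no overlap) place the 2 IRI long 14 d libraries close to each other and far from control. IRF9 and IRF12 were 0.164 apart, pairs of control libraries 0.0374 to 0.399, and pairs across the groups 0.646 to 0.748. The cells were spread over the clusters more evenly after ischemia, with an effective number of clusters (the exponential of the Shannon entropy) of 10.1 in IRF9 and 8.35 in IRF12 against 5.65 to 8.02 in control. This difference of 2.10 did not pass (exact permutation test, p = 0.0714) and was −0.04 under the annotation described next.

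The authors annotated the same cells again together with 2 libraries from inhibitor-treated mice, in 19 clusters. In this second annotation, 12 of 19 clusters differed between IRI long 14 d and control. Neutro_2 (7.02), Neutro_1 (5.21), Macro (2.95), Fibro (1.98) and B cells (0.84) were higher, and CD-IC (−2.92), the proximal clusters PST (−2.29), PCT (−2.20) and PT (−1.63) and 3 further tubule clusters were lower, each with a limma adjusted p under the threshold. Fibro held 92.6% of the Mono_1 cells of IRI long 14 d and 93.2% of those of control, so that its name and that of Mono_1 place the same cells in different classes. Of the 53 Myofib cells of control, 32.1% were in the joint cluster GEC, Endo, 28.3% in SMC and 24.5% in LOH. The second annotation has no Myofib cluster, so only the class of these cells can be compared. From 22.2% (2 of 9 cells, norm2) to 100% (9 of 9, norm5) of the Myofib cells of a control library stayed endothelial or stromal. In IRF9 and IRF12 this was 1 of 1 and 1 of 2 cells. For T cell_2, 35.1% of its IRI long 14 d cells and 21.5% of its control cells were named PT in the second annotation. By library, a name of the PT class went to 38.1 and 31.7% in IRF9 and IRF12 and to 2.07 to 31.1% in control. In the remaining IRI groups this was 13.3 to 66.2%, so it was not particular to IRI long 14 d.

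The names of PT S3 cells differed between the annotations far more in IRI long 14 d than in control. Of the 1039 PT S3 cells of IRI long 14 d, 31.1% were named DCT1 in the second annotation, 24.8% Neutro_2, 23.8% PST and 6.45% Neutro_1. Of the 12372 PT S3 cells of control, 67.0% were named PST and 28.2% PT. The share that stayed within the PT class was 64.8% in IRF9 (exact 95% binomial interval 59.6 to 69.6) and 13.1% in IRF12 (10.6 to 15.9), against 90.2 to 98.2% in control libraries, of which norm5 was the lowest. PT S1 cells stayed in the PT class in 95.7 and 87.0% of cases in IRF9 and IRF12 and in 95.5 to 98.2% in control.

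The share of PT S3 cells with a neutrophil or macrophage name was 44.4% in IRF12 and 7.65% in IRF9. In the 16 remaining libraries, from control and from all other IRI groups, it was at most 0.276%, with 5 cells of 16171 in all and no such cell in 11 libraries. PT S3 cells with another epithelial name were not limited to 14 d: they made up 25.7 and 41.2% in IRI long 14 d, 47.2 and 52.5% in IRI short 1 d and 11.8 and 77.9% in IRI long 1 d. In IRI short 3 d they made up 7.41 and 46.0%, in IRI long 3 d 4.04 and 4.17%, in IRI short 14 d 4.42 and 11.8%, and in control 1.26 to 8.49%. These values were looked up after the difference in naming had been seen, and no test was made. Seen from the second annotation, 63.6% of the 508 DCT1 cells of IRI long 14 d had been PT S3 in the first, against 5.73% of the 1834 DCT1 cells of control.

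**Figure D4:**
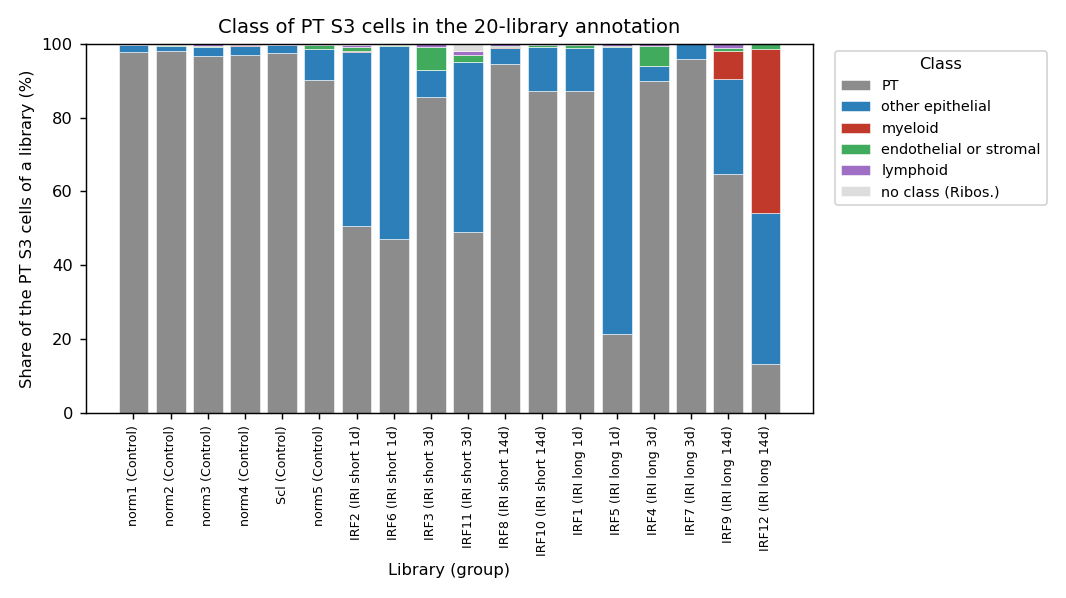
Class that the PT S3 cells of each of the 18 libraries received in the 20-library annotation, in percent of the PT S3 cells of the library. Myeloid names (red) are visible in IRF9 and IRF12, with 7.65 and 44.4%, and reach at most 0.276% in the remaining libraries.

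Over all PT cells, the class was the same in both annotations for 76.7% in IRF9 and 23.9% in IRF12, against 93.5 to 98.2% in control (exact permutation test, p = 0.0357, adjusted p = 0.0714, the smallest possible with 3 of 6 values separated). A further count kept only cells with the same class in both annotations, with Fibro taken as myeloid so that most Mono_1 cells stayed in. In this count PT S3 made up 3.62% of IRF9 and 1.43% of IRF12 against 11.5 to 43.1% in control, and the difference was −2.84 in place of −1.66 (standard error 0.53, limma adjusted p = 1.01e-04). Per non-immune cell it became −0.97 in place of 0.18 and did not pass (limma adjusted p = 0.145). Counts of clusters past the threshold were 13 of all cells and 9 within immune or other cells under this restriction, the same numbers as without it. A restriction with Fibro taken as stromal was not made.

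Positions in the authors' UMAP, which have no unit, were compared as distances between cluster centroids. Of 11 clusters with enough cells (Macro with 4 control libraries only), 0 had a displacement between the group centroids that passed the adjusted exact permutation test, with 2 at an unadjusted p under 0.05. These were PC (0.563, p = 0.0357 in the exact test) and PT S1 (0.480, p = 0.0357 in the exact test), both with an adjusted p of 0.196. PT S3 was displaced by 1.51 (exact permutation test, p = 0.0714), with 2.44 for IRF12 and 0.571 for IRF9. The PT S3 cells of IRF12 that kept a PT name lay 0.183 from the control centroid, while those with a myeloid name lay 2.72 and those with another epithelial name 3.02 away. In the 5 control libraries with at least 20 PT S3 cells of another epithelial name, such cells lay 3.66 to 10.1 from it.

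Compared with days 1 and 3 after the same ischemia, 4 of 18 clusters (22.2%) differed at 14 d, all lower, with 0 higher and 8 at an unadjusted p under 0.05 in limma. Myofib made up 0.983, 0.969, 1.63 and 2.81% of the 4 earlier libraries and 0.0138 and 0.0284% at 14 d (difference −4.00, standard error 0.37, limma adjusted p = 4.92e-08). Endo fell from 5.36 and 4.78% at 1 d and 2.63 and 3.10% at 3 d to 0.678 and 0.298% (−2.16, limma adjusted p = 8.48e-04). PC made up 2.18 to 6.37% of the earlier libraries and differed by −1.82 (limma adjusted p = 8.25e-04). GEC was lower at 14 d by −1.09 (limma adjusted p = 0.0195), a call lost without IRF12 or IRF7. At 14 d GEC lay within the control range and Endo within it in IRF12 and above it in IRF9, while PC and Myofib lay below every control library. Granul_2 (1.42, limma adjusted p = 0.0794), T cell_1 (1.08, 0.0794) and PT S3 (0.64, 0.306) were not past the threshold. On the centred log-ratio scale 3 clusters were higher and 3 lower, the median over clusters shifted by 0.54 and GEC lost its call. On the arcsine square root scale 1 was higher and 4 lower.

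**Figure D5:**
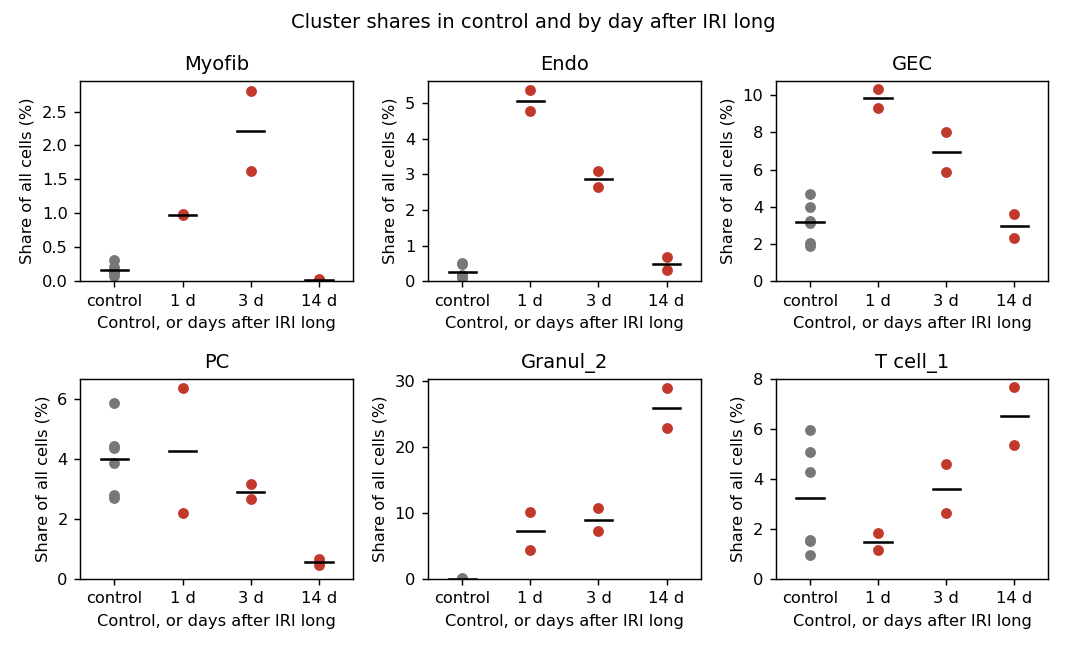
Share of all cells in control libraries (grey) and 1, 3 and 14 d after IRI long (red) for 6 clusters, with 1 point per library and a line at each group mean. Myofib peaks at 1.63 and 2.81% at 3 d and is at or below 0.0284% at 14 d, while Granul_2 is at 22.9 and 28.9% at 14 d and at most 10.7% before.

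Kidneys taken on the same day after the shorter ischemia (IRF8 and IRF10) differ from IRI long 14 d in the clamping time. In that comparison 6 of 18 clusters (33.3%) differed. Granul_2 was the only higher one (5.56%), with 22.9 and 28.9% in IRI long (difference 2.36, limma adjusted p = 0.0130). In IRI short it had 161 of the 10917 cells of IRF10 and 304 of the 4518 cells of IRF8. DCT was among the 5 lower ones (27.8%), with 3.17 and 2.11% in IRF9 and IRF12 against 13.1 and 7.72% in IRF10 and IRF8 (difference −1.44, limma adjusted p = 0.0130). IC had 0.166 and 0.156% against 1.26 and 0.620%, and PC 0.650 and 0.454% against 2.58 and 3.17%, in the same order. PT S3 (−0.31, limma adjusted p = 0.714) and Endo (−0.47, limma adjusted p = 0.614) did not pass. The 6 calls depended on single libraries: leaving out IRF12 removed every call in limma (0 called, 6 with p under 0.05 before adjustment), leaving out IRF10 kept a count of 2, and leaving out IRF9 a count of 3. On the arcsine square root scale 2 clusters were higher and 2 lower, without IC, PC and Myofib. Myofib (−1.54) also lost its call without IRF8, and its difference was −0.17 with all libraries thinned to 2064 cells (limma adjusted p = 0.877).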

How the data were processed

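The authors made Chromium 3′ libraries, aligned reads to mm10 with Cell Ranger, removed cells of low quality in Seurat and doublets with DoubletFinder, used LIGER for integration and assigned cluster names manually. Filters, doublet removal and LIGER also underlie the annotation of 20 libraries, whose deposited table holds 136794 cells. How its clusters were named is not given in the sources used here. The deposited tables hold for each cell a cluster name and a treatment group (other), and 2 UMAP coordinates, taken as the deposited score without unit. No UMI counts were used, so precision rests on the number of cells per library, and exact binomial (Clopper-Pearson) intervals cover counting error only.

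Libraries were read from the cell names and grouped by the authors' labels, without replicate numbers. Shares on the logit scale (0.5 cells added) were fitted with limma 3.58.1 in R 4.3.3 over 18 libraries with 7 group means, adjusted with the Benjamini-Hochberg method over 18 clusters at a threshold of 0.05. For single values, exact permutation tests (two-sided) ran over all 28 ways (15 for the UMAP position of Macro), for lineages and UMAP centroids with at least 20 cells per library. Immune denotes the granulocyte, monocyte, macrophage, T and B cell clusters. The tests were checked on simulated data and run with scipy 1.17.1, pandas 2.3.3, numpy 2.4.6 and matplotlib 3.10.9 under python 3.11.15. All 18 clusters are named in the text, with values per library for those past the threshold. The clusters, lists and tests were chosen with earlier results of these data known. The p-values measure the spread between libraries, each taken as 1 mouse.

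Alternatives were 1 cell added, the centred log-ratio, the arcsine square root, thinning to 2064 cells, a filter of 10 cells in 2 libraries, the annotation of 20 libraries, a term for the barcode set, a fit of the 8 libraries alone, norm5 as the only control, shares pooled over cells, the inverse Simpson index, 50 cells per library, the median or the second annotation in the UMAP, and leaving out each library. Chosen after seeing the data were counting only cells of the same class in both annotations (Fibro as myeloid), class shares and class agreement with Fibro as myeloid, the effective number of clusters in the annotation of 20 libraries, and, within immune or other cells, that annotation, the 8 libraries alone and norm5 as the only control. The closing section gives those of their effects that changed a sign or moved a count or value. The term for the barcode set and norm5 as the only control give the same differences from control, with different standard errors.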

Additional observations from a re-analysis of the deposited data

Results flagged for a closer look

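Among 64 sets of control values in which 1 library could stand apart, 4 did so, all through norm5, where chance alone flags about 1 set in 20. In norm5 88.2% of all cells had the same class in both annotations, and the next control library had 93.9%. For PT cells this value was 93.5% in norm5 and 97.1% in the next library, and for other epithelial cells 91.9 and 98.0%. The PT S3 centroid of norm5 lay 1.22 UMAP units from the mean of the controls, with 0.397 in the next library.

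The cluster shares 14 d after long ischemia differed from those 1 and 3 d after it in Myofib (−4.00), Endo (−2.16), PC (−1.82) and GEC (−1.09), by limma on the logit scale. They differed from those 14 d after short ischemia in Granul_2 (2.36), which was higher, and in IC (−1.68), PC (−1.67), Myofib (−1.54), LOH (−1.52) and DCT (−1.44), which were lower. The Myofib difference from short ischemia was −0.17 after thinning.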

How the results depend on the processing

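No paired analysis was possible because the library names carry no replicate number of the sample list. Against control, 11 to 13 clusters were past the threshold under the other settings with all libraries, except 9 per immune or other cell.

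Expressed per immune or other cell, PT S3 (0.18), DCT (0.17), GEC (1.57), Mono_1 (−0.21), T cell_1 (−1.42), T cell_2 (−1.88) and B cells (−1.37) took the other sign. With the barcode set as a term or norm5 as the only control this held for Podo (−0.64), GEC (0.44) and T cell_2 (−0.46), and with cells of the same class in both annotations (Fibro as myeloid) for GEC (0.0443). Within compartments it held for DCT (−0.45) with the barcode set as a term or norm5 alone, for PT S3 (−0.97), LOH (0.21) and Myofib (0.49) with cells of the same class, and for Myofib (0.33) and Mono_2 (−1.56) after thinning. The thinned Mono_2 difference passed as lower (limma adjusted p = 0.0113), although thinning left 1 such cell in IRF12 and 0 in IRF9 and in every control library. Its sign thus comes from the 0.5 cells added and is no result about the cluster. The count within compartments was 5 with the barcode set as a term and 14 in the 20-library annotation, and that against IRI long 1 and 3 d was 1 in the 20-library annotation and 8 after thinning. In the count of 14, Fibro was taken as non-immune, although it held most Mono_1 cells. This lowers the shares of the other non-immune clusters in IRI long 14 d.

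Against norm5 alone the class differences in percentage points were −20.6 for PT, −42.8 for other epithelial, 1.38 for endothelial or stromal, 61.3 for myeloid, 0.680 for lymphoid and 62.0 for immune cells. In the 20-library annotation they were −42.2, −26.9, 6.79 and 57.1 for the first 4 and 61.9 for immune cells. Each of these passed there (exact permutation test, p = 0.0357, adjusted p = 0.0429). The endothelial or stromal difference of 6.79 counts Fibro as stromal. Endothelial or stromal cells gave 0.368 pooled in the first annotation, and 0.199 in the second with Fibro as myeloid (exact permutation test, p = 0.821). Against norm5 alone, PT S1 among PT cells gave −35.5, T cell_1 among T cells 19.6 and B cells among lymphoid cells 10.8 (2.35 pooled). The effective number of clusters gave −0.0371 in the 20-library annotation. Class agreement against norm5 alone gave −6.74 for all, −43.2 for PT (−50.7 pooled), −0.759 for other epithelial and 0.200 for lymphoid cells.

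Leaving out single libraries gave 11 to 14 clusters against control, 3 to 5 against IRI long 1 and 3 d, 0 to 5 against IRI short 14 d, 7 to 10 within compartments and 0 to 0 in the UMAP. Class differences ran from −43.7 to −36.1 (PT), −31.6 to −26.3 (other epithelial), −0.916 to 0.720 (endothelial or stromal, positive without IRF12, norm3 or norm4), 58.4 to 65.9 (myeloid), 3.81 to 9.79 (lymphoid) and 68.0 to 70.3 (immune). Lineage differences ran from −26.5 to −2.35 (PT S1), −31.8 to −23.5 (IC), −8.32 to −3.80 (GEC), 16.7 to 25.1 (Macro), 4.03 to 10.9 (T cell_1) and −5.40 to 3.99 (B cells, positive without IRF9, norm1 or norm2). The effective number ran from 1.23 to 2.97. Class agreement ran from −13.8 to −12.0 (all), −73.0 to −20.2 (PT), −7.30 to −5.21 (other epithelial), 1.76 to 3.88 (endothelial or stromal), 44.8 to 51.2 (myeloid) and −7.63 to 1.93 (lymphoid, positive without IRF9 or Scl). The myeloid agreement (mean 86.2% in IRI long 14 d and 38.3% in control) was counted with Fibro as stromal, although Fibro held most Mono_1 cells of both groups. With Fibro as myeloid, 96.2 and 98.2% of the Mono_1 cells of IRF9 and IRF12 kept their class, against 75.0 to 99.6% in control. For single clusters the sign changed for GEC (−0.26 to 0.19, positive without IRF12, norm3 or norm4). Within compartments it changed for PT S3 (−0.38 to 0.73, negative without IRF12 or norm5), LOH (−0.30 to 0.15, positive without IRF12 or norm5), DCT (−0.0173 to 0.36, negative without IRF9), Myofib (−0.58 to 0.0296, positive without IRF9) and Mono_1 (−0.43 to 0.00883, positive without Scl). The causes were not tested. With 2 libraries, no exact permutation test could fall below 0.0357, and Podo, IC, Mono_2 and Myofib rest on few cells.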
